A study of Mus musculus with 20 samples.

Results

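The genes described here are 10 transcripts of connective tissue matrix in skin: the fibrillar collagens Col1a1, Col1a2, Col3a1, Col5a1 and Col5a2, the type VI collagen chain Col6a1, the fibril-associated collagen Col12a1, the matricellular proteins Postn and Sparc, and the growth factor receptor Pdgfra. They were chosen by name as stromal matrix genes of the dermis, and all 10 were found, each with 1 identifier, among the 51123 gene identifiers counted. RNA had been sequenced from tdTomato-positive cells sorted out of dissociated mouse skin, in 20 libraries of 7 groups. Epidermis of young mice (100 to 120 days) came in 4 genotypes with 3 libraries each: wild type (WT), and mice with floxed Wwox (WKO), floxed p53 (PKO) or both (DKO). A further 2 WT libraries came from epidermis of old mice (at least 400 days). Spontaneous tumours, cutaneous squamous cell carcinomas (cSCC), came from PKO (n = 3) and DKO (n = 3) mice, for which no age is given. The mutants are K14cre;Wwoxfl/fl (WKO), K14cre;p53fl/fl (PKO) and K14cre;Wwoxfl/fl;p53fl/fl (DKO). The keratin 14 promoter drives Cre in keratinocytes, so deletion is set by that promoter, and the WT titles give no Cre allele. The labels call the sorted cells keratinocytes, and a sort for tdTomato would remove fibroblasts and other dermal cells that lack this reporter. Samples within a group are labelled as biological replicates.

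Types I and III collagen are the main fibrils of dermis, and type V collagen is built into the same fibrils and limits their width. Type VI collagen forms beaded filaments around cells, and type XII collagen, the product of Col12a1, sits on the surface of type I fibrils. Periostin (Postn) and Sparc bind collagen and regulate how fibrils are assembled, and Pdgfra, a receptor for platelet-derived growth factor, marks most dermal fibroblasts. In skin most of these transcripts are made by fibroblasts, whereas keratinocytes are known for the collagens of the basement membrane, such as types IV, VII and XVII.

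RefSeq promoter windows on the mouse build GRCm38.p6 were found for 7 of the 10 genes, in 8 windows. The 150 bases before the start site are shown, 5′ to 3′, for a pair of genes whose levels moved together across libraries (Col1a2, Col3a1) and for 1 that did not move with them (Postn, the second of its 2 windows). The coding strand is the plus strand in each, at chr6:4505468-4505617, chr1:45311388-45311537 and chr3:54360957-54361106. Capitals mark the motifs searched, at any position: TATAAA, the letters of a TATA box (gene strand), and CCAAT, those of a CCAAT box (both strands). GGGCGG was searched on both strands as well.
Col1a2: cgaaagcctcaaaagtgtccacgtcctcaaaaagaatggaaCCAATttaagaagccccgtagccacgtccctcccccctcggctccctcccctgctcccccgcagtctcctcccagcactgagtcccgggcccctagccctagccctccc
Col3a1: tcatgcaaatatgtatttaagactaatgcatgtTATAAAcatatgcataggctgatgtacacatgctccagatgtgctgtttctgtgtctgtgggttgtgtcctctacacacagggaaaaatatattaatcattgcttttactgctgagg
Postn: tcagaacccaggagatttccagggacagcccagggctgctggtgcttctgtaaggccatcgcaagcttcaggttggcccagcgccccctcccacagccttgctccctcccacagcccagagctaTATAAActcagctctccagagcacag
Among 32851 windows of 250 bases, TATAAA was present in 7.6%, CCAAT in 33.8% and GGGCGG in 32.7%. Col3a1 and the second Postn window held TATAAA, and Col1a2 held CCAAT and, upstream of the bases shown, GGGCGG. The first Postn window held none of these motifs. These matches describe letters in the window and were not set against the expression values.

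Total counts were 11930153 to 17199262 per library, and the 10 genes took 0.0134% to 0.528% of them. Levels are given as CPM, counts scaled to a library total of 1000000 with library totals adjusted by the trimmed mean of M-values (TMM). The targeted genes checked the labels. Wwox was 8.74 to 10.03 CPM in young WT and 0.137 to 1.29 in WKO, but 7.34 in the library labelled DKO young 3. Trp53 was 30.7 to 40.0 CPM in young WT, 5.90, 21.8 and 19.2 in PKO young 1, 2 and 3, 21.1 in the library labelled DKO young 3 and 45.5 in the library labelled DKO cSCC 3. PKO young 2 and the library labelled DKO young 3 were the most alike of all 190 pairs of libraries (Pearson r = 0.984 of log2(CPM + 1) across 11023 genes, which are not independent replicates), and Postn was 221 against 282 CPM in that pair. The values of that pair were not identical: Col1a1 had 4618 counts (388 CPM) in PKO young 2 and 4690 counts (465 CPM) in the library labelled DKO young 3. The p-values below set a difference between groups against the spread between libraries within groups, estimated over all groups of a fit. PKO young 2 and the library labelled DKO young 3 were kept as separate libraries. Basal keratinocyte markers were present in every library, from 2019 CPM in young WT 1 to 29736 CPM in PKO cSCC 3. Most calls on the 10 genes and on gene lists that use the libraries that go against their labels are also given without them.

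**Figure D1:**
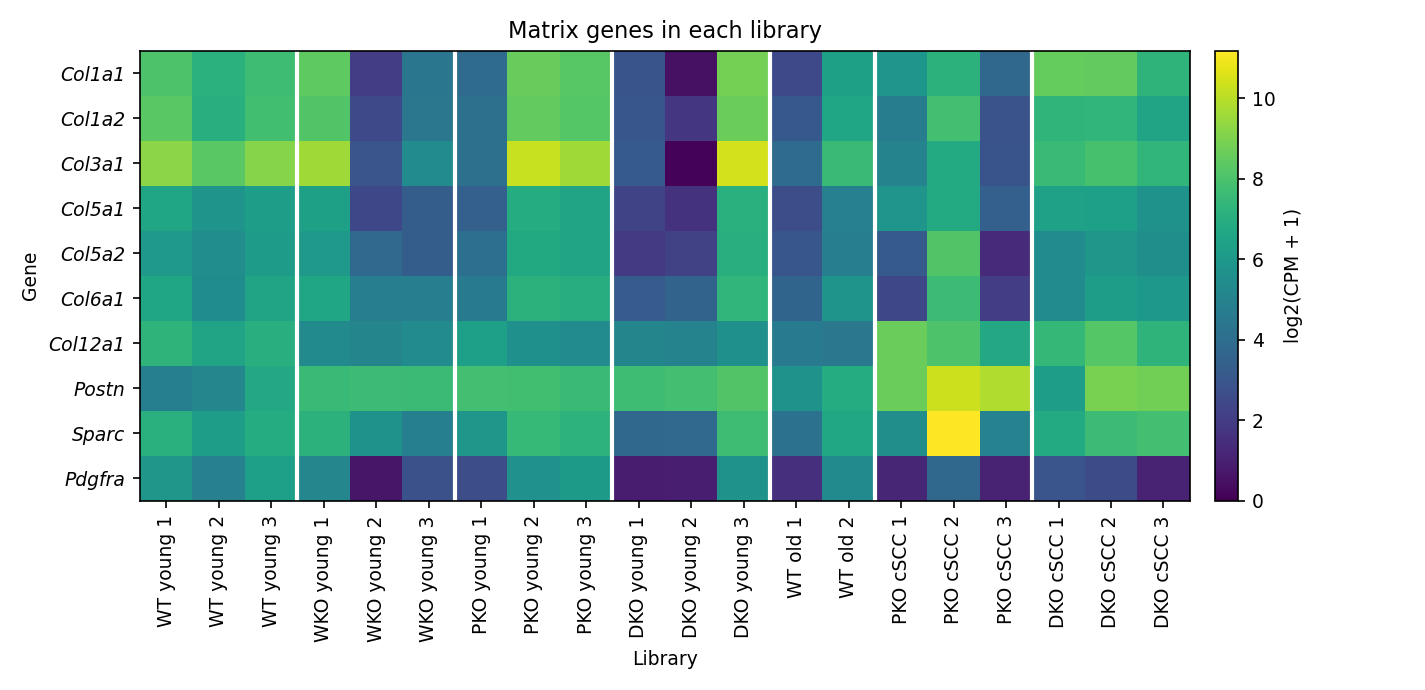
Levels of the 10 genes (rows) in the 20 libraries (columns, white lines between groups) as log2(CPM + 1), from dark (low) to yellow (high). Collagen rows other than Col12a1 switch between high and low within WKO, PKO and DKO young epidermis, while the Postn row is even there. PKO cSCC 2 holds the brightest cell, Sparc at 2321 CPM.

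In young epidermis the type I collagen genes were high in all WT libraries and in some libraries of every mutant group. Col1a1, which encodes the α1 chain of type I collagen, was 265, 139 and 210 CPM in WT 1, 2 and 3. It was 341, 3.08 and 19.96 CPM in WKO, 13.9, 388 and 312 CPM in PKO, and 6.55, 0.435 and 465 CPM in DKO, where the last is the library labelled DKO young 3. High and low libraries therefore occurred within WKO, PKO and DKO alike, and each mutant group passed the WT range on both sides. Col1a2, the α2 chain, was 317, 130 and 221 CPM in WT, 279, 4.58 and 20.3 in WKO, 16.53, 365 and 300 in PKO and 7.07, 2.39 and 405 in DKO. The libraries low for Col1a1 were the libraries low for Col1a2: WKO 2 and 3, PKO 1, and DKO 1 and 2.

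Type III collagen had the widest range. Col3a1, its only chain, was 595, 314 and 560 CPM in WT, 769, 6.70 and 41.4 CPM in WKO, 16.4, 1213 and 774 CPM in PKO and 8.07, 0.0725 and 1368 CPM in DKO. DKO young 2 had 1 Col3a1 count, which is under the 3 counts that a count of 0 would allow, and 6 Col1a1 counts. Col5a1, which encodes a fibril-width regulating chain, was 53.8 to 96.9 CPM in WT and 2.10 to 9.83 CPM in the 5 libraries low for Col1a1. Col5a2, its partner chain, was 43.9 to 68.6 CPM in WT and 2.71 to 16.1 CPM in those 5. Col6a1 of the beaded filament was less uneven, at 42.2 to 96.3 CPM in WT and 8.53 to 26.8 CPM there. Sparc was 73.8 to 138 CPM in WT and 12.4 to 59.5 CPM there, and Pdgfra was 27.9 to 77.5 CPM in WT and 0.615 to 5.77 CPM. For all 8 of these genes the 5 libraries were the lowest of the 12, which describes the levels and is not tested, since these libraries are picked out by the same values.

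None of these 8 genes passed the test between any mutant group and WT in young epidermis, with all libraries in. For Col1a1 the edgeR log2 fold change was -0.78 (SE 1.93, adjusted p = 0.795) for WKO, 0.21 (SE 1.92, adjusted p = 0.956) for PKO and -0.40 (SE 1.92, adjusted p = 0.892) for DKO. With an SE near 2 on the log2 scale, a change of several-fold in Col1a1 could not be detected. Without the library labelled DKO young 3, 7 of the 10 genes passed the test for DKO against WT: Col5a1, Col5a2, Col6a1, Col12a1, Sparc and Pdgfra were lower and Postn higher. In that fit 23.4% of all genes were called. Col1a2 joined them when PKO young 2 and 3 and the library labelled DKO cSCC 3 were also left out, which made 8, against 29.4% of all genes. The calls on Col5a1, Col5a2, Col6a1, Sparc and Pdgfra in DKO epidermis depended on 1 library, whose Wwox and Trp53 levels go against its label. Col12a1 and Postn were called with that library and without it.

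Some fibroblast and matrix genes were high and low in the same libraries. Of the 3 given here, Dpt and Pi16 come from the list of fibroblast identity genes and Dcn from that of proteoglycans. All 3 were chosen after their values were seen. Dpt, a dermal matrix protein, was 42.1, 18.4 and 26.1 CPM in WT, 47.0, 0.205 and 1.497 in WKO, 0.553, 60.6 and 77.3 in PKO and 0.661, 0 and 69.6 in DKO. Pi16, a marker of adventitial fibroblasts, was 60.2, 33.8 and 41.4 CPM in WT, 36.9, 0.342 and 2.14 in WKO, 0.123, 30.6 and 65.5 in PKO and 0.727, 1.02 and 32.3 in DKO. The small proteoglycan decorin (Dcn) was 141, 63.4 and 263 CPM in WT, 108, 8.41 and 20.8 in WKO, 13.95, 273 and 282 in PKO and 3.64, 3.12 and 305 in DKO. All 3 were lowest in WKO 2 and 3, PKO 1, and DKO 1 and 2, as the collagens were. The summed level of 25 fibroblast identity genes, a list that includes Thy1, also a T cell gene, was 769 to 1299 CPM in WT, 92.0 to 544 in WKO, 230 to 1189 in PKO and 87.9 to 545 in DKO. Fewer fibroblasts and less RNA per cell cannot be told apart in these bulk libraries, and the part of fibroblasts in the collagen levels was not tested.

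Col12a1 and Postn went another way: in the mutants Col12a1 was lower and Postn higher than in WT in libraries high and low for collagen I alike. Col12a1 was 154, 90.8 and 133 CPM in WT, 40.1, 33.5 and 41.3 CPM in WKO, 79.4, 48.3 and 40.7 CPM in PKO and 34.2, 30.8 and 47.4 CPM in DKO. No mutant library reached the lowest WT library, a lack of overlap in this direction shared by 25.2% of all genes for WKO, 14.2% for PKO and 24.6% for DKO. Col12a1 fell in WKO by 1.73 on the log2 scale (SE 0.29, adjusted p = 0.0126) and in DKO by 1.76 (SE 0.29, adjusted p = 0.00614), in edgeR's quasi-likelihood test. For PKO its log2 fold change was -1.17 (SE 0.28, adjusted p = 0.0565), which missed the threshold of 0.05. DESeq2 gave -1.19 (adjusted p = 0.00263), and edgeR with no low-count filter -1.14 (adjusted p = 0.0262), both past it.

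Postn, which encodes periostin, was 27.0, 35.1 and 105 CPM in WT, 192, 202 and 194 CPM in WKO, 227, 221 and 191 CPM in PKO and 207, 228 and 282 CPM in DKO. The 9 mutant libraries lay within 191 to 282 CPM and all were above the WT libraries, which spread over 3.89 times. Such a lack of overlap held for 26.4% of all genes in WKO, 13.5% in PKO and 23.7% in DKO. Postn was higher in WKO by 1.81 on the log2 scale (SE 0.42, adjusted p = 0.0177) and in DKO by 2.09 (SE 0.42, adjusted p = 0.00862) in edgeR. For PKO the value was 1.94 (SE 0.42, adjusted p = 0.0539), past the threshold with DESeq2 (adjusted p = 0.000373). The WKO call on Postn was lost without WT 1, WT 2, WKO 2 or WKO 3 (edgeR adjusted p from 0.0502 to 0.0594), with log2 fold changes of 1.49 to 1.82. So 2 of the 10 genes passed the test for WKO and 2 for DKO, against 21.4% and 27.8% of all genes tested, and 0 for PKO against 0.00601%. The members called are thus about as frequent as genes called in the whole table. The median over the 10 genes was -0.98 for WKO, 0.21 for PKO and -0.46 for DKO, against -0.03, -0.01 and -0.04 over all genes. At an unadjusted p under 0.05 the same test called 2 of 10 for PKO, Col12a1 and Postn, and 25.1% of all genes.

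Other cell types moved with these groups. The summed level of 8 basal keratinocyte genes was 2019 to 3423 CPM in WT and 12489 to 21954 CPM in 8 of the 9 mutant libraries, and all 8 of those genes were called higher in WKO and in DKO. PKO young 3 had 3152 CPM of these genes, within the WT range, and 3543 CPM of 12 T and NK cell genes, against 1965 to 2634 CPM in WT. Of those 12 genes, 1 was called lower in WKO and 7 in DKO. Col12a1 at 40.7 CPM and Postn at 191 CPM in PKO young 3 lay with the other mutant libraries. Erythrocyte genes were 829 to 3494 CPM in WT and at most 220 CPM in the mutants. Without the library labelled DKO young 3, 7 of the 8 basal keratinocyte genes were called higher and 2 of the 12 T and NK cell genes lower in DKO. The part of cell make-up in the Col12a1 and Postn differences was not tested.

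**Figure D2:**
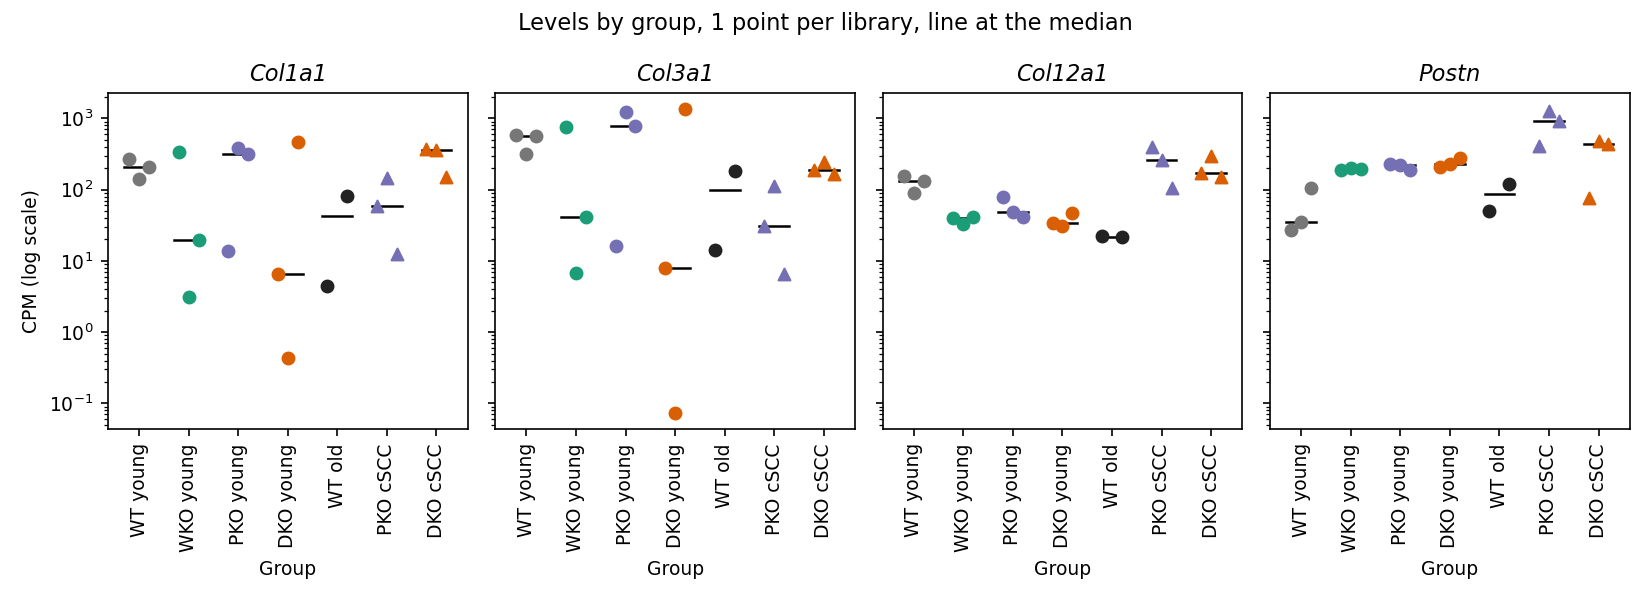
CPM on a log scale for Col1a1, Col3a1, Col12a1 and Postn, 1 point per library (triangles are carcinomas), with a line at each group's median. Within each young mutant group Col1a1 and Col3a1 spread over 10 times or more, whereas Postn stays within 191 to 282 CPM.

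Old WT epidermis had 2 libraries that differed from each other. Col1a1 was 4.51 CPM in old WT 1 and 81.9 CPM in old WT 2, Col3a1 was 14.02 and 183 CPM, and Pdgfra was 1.89 and 38.0 CPM. Both old libraries were below all young WT libraries for 6 of the 10 genes (Col1a1, Col1a2, Col3a1, Col5a1, Col5a2 and Col12a1), against 21.2% of all genes, and old WT 2 lay within the young range for Pdgfra. Col12a1 was 22.6 and 21.3 CPM in old WT, against 90.8 to 154 CPM in young WT, and fell by 2.51 on the log2 scale (SE 0.34, edgeR adjusted p = 0.0181). That was 1 of 10 genes, against 1.99% of all genes tested, with a median of -1.95 over the 10 and 0.01 over all genes. The call was lost without any of the young WT libraries or old WT 2 (adjusted p from 0.051 to 0.0861), with log2 fold changes of -2.34 to -2.71. Postn was 50.4 and 122 CPM in old WT (log2 fold change 0.64, SE 0.49, adjusted p = 0.461). Basal keratinocyte genes summed to 12672 and 4273 CPM in old WT 1 and 2, and their part was not tested.

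The 6 carcinomas differed in which of the 10 genes led, so they are described one by one. Levels were divided by the exonic length of each gene, with all annotated exons merged (CPM per kb), and the order of genes depends on this. A share is a gene's part of the sum over the 10 genes. In PKO cSCC 1, Postn held 43.5% and Col12a1 24.2% of that sum, at 406 and 396 CPM. Its Col12a1 was the highest of the 20 libraries. Col1a1 stood at 58.5 CPM there, Col3a1 at 31.2 and Col6a1 at 4.38 CPM, the last with 60 counts. Col5a1 was 55.6 CPM while Col5a2 was 7.88 CPM, a ratio of counts of 7.05, against 0.342 to 1.55 in the 14 epidermis libraries. The fibroblast markers Dpt (0.292 CPM) and Pi16 (0.365 CPM), chosen after their values were seen, were near 0, and Pdgfra was 1.31 CPM. The 25 fibroblast identity genes together summed to 368 CPM, the highest of the 6 carcinomas, with 1 of them at 0.

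PKO cSCC 2 stood apart from the other carcinomas. Sparc held 66.6% of the sum at 2321 CPM and Postn 16.1% at 1287 CPM, both the highest of the 20 libraries. Col5a2 was 284 CPM, Col12a1 262, Col1a2 228 and Col6a1 204 CPM. Col1a1 was 144 CPM and Col3a1 113 CPM. Collagens of cartilage were at levels not met elsewhere: Col2a1, the fibrillar collagen of cartilage, was 3225 CPM, against at most 4.96 CPM in the other 19 libraries. Col11a1, which joins it in the fibril, was 2463 CPM, against at most 6.94 CPM. Comp, a cartilage matrix protein, was 535 CPM. Fibronectin (Fn1) was 7515 CPM, while the bone gene Bglap was at 0 and Matn1, another cartilage matrix gene, at 0.232 CPM. The transcription factor Sox10, from the melanocyte and Schwann list, was 391 CPM, where that whole list summed to 462 CPM. The fibroblast markers Dpt (0.58 CPM), Pi16 (0.058 CPM) and Clec3b (0.232 CPM) were near 0 here as well, whereas Dcn was 389 CPM, the highest of the 20 libraries. The 25 fibroblast identity genes summed to 252 CPM, with 3 at 0. The cartilage, bone and fibroblast genes named here, and Fn1, Sox10 and Dcn, were chosen after their values were seen. The 10 cartilage and bone markers summed to 1751 CPM in this library, against 72.3 to 271 CPM in the other 19, and pericyte and smooth muscle markers to 947 CPM, against 46.6 to 670 CPM. The part of such cells in the Sparc and Postn levels was not tested.

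PKO cSCC 3 was led by Postn, which held 83.9% of the sum at 909 CPM, while Col12a1 was 106 CPM. Col1a1 was 12.5 CPM, Col3a1 6.51, Col5a2 1.56 and Col6a1 3.05 CPM, each the lowest of the 6 carcinomas. Col5a1 over Col5a2 was 6.26, near the 7.05 of PKO cSCC 1. Lum and Dpt were at 0 CPM and Dcn at 0.346 CPM (genes chosen after their values were seen), while the 25 fibroblast identity genes summed to 165 CPM, the lowest of the carcinomas, with 7 at 0. Basal keratinocyte genes summed to 29736 CPM, the highest of the 20 libraries.

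DKO cSCC 1 had the make-up most weighted to type I collagen. Col1a1 held 34.7% of the sum at 370 CPM, Sparc 18.7% at 115 CPM and Col3a1 11.7% at 186 CPM. Postn was 76.2 CPM and held 5.4%, the lowest share among the carcinomas. DKO cSCC 2 was more even: Postn held 21.9% at 486 CPM, Col1a1 21.6% at 362 CPM and Sparc 20.9% at 202 CPM, and Col12a1 was 297 CPM. The library labelled DKO cSCC 3 led with Sparc, 31.3% at 229 CPM, and Postn, 26.1% at 439 CPM, ahead of Col1a1 with 12% at 153 CPM. Without division by length Postn led the library labelled DKO cSCC 3, with 31.6% of the summed CPM against 16.5% for Sparc. Endothelial genes summed to 435 CPM in that library, against 12.8 to 76.0 CPM in the other 5 carcinomas, and melanocyte and Schwann genes to 667 CPM, against 42.6 to 462. Sparc is also made by endothelial cells, and the part of those cells was not tested. The 25 fibroblast identity genes summed to 240, 335 and 318 CPM in DKO cSCC 1, 2 and 3, which overlapped the 165 to 368 CPM of the PKO carcinomas, with 1 gene at 0 in each. Of them, Dpt was 2.07, 5.10 and 2.05 CPM and Cd248, a stromal surface protein, 6.59, 17.8 and 6.42 CPM, a pair chosen after their values were seen.

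**Figure D3:**
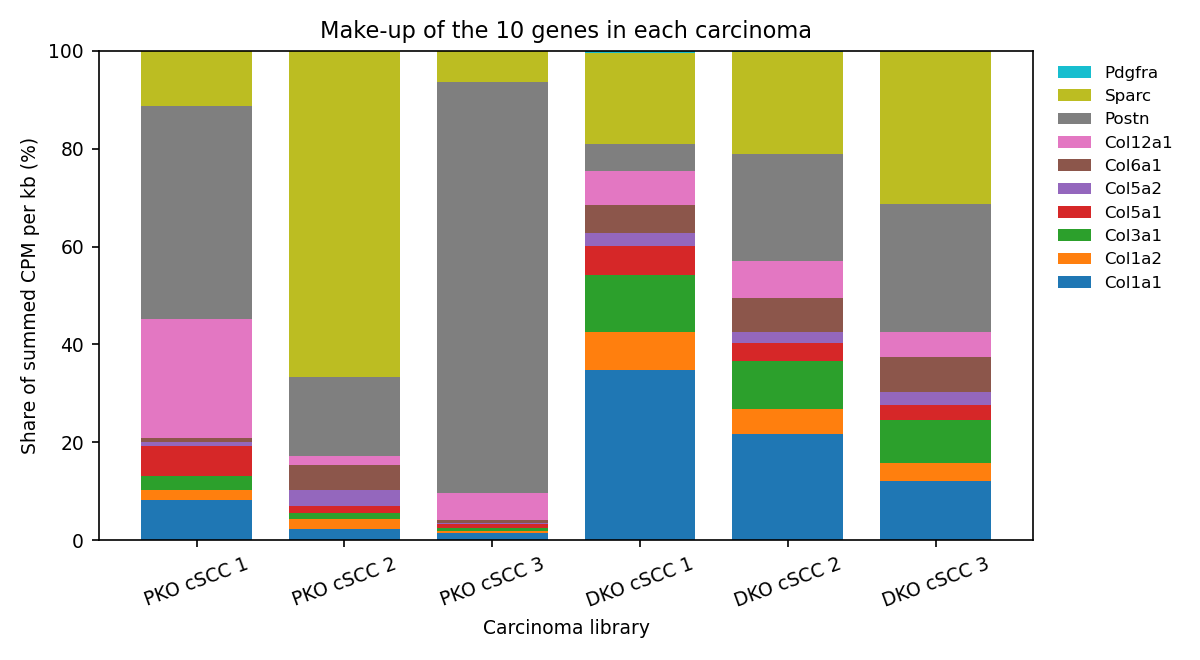
Share of each of the 10 genes in their summed CPM per kb (0 to 100%), 1 bar per carcinoma library. Postn fills 83.9% of PKO cSCC 3 and Sparc 66.6% of PKO cSCC 2, and Col1a1 is the largest segment only in DKO cSCC 1, at 34.7%.

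Ratios of counts within a library do not depend on scaling. Those among the type I and type III collagen genes set most carcinomas apart from epidermis. Col5a1 over Col5a2 set fewer apart. It was 7.05, 0.395 and 6.26 in PKO cSCC 1, 2 and 3 and 1.98, 1.30 and 1.10 in DKO cSCC 1, 2 and 3. In epidermis it was 0.342 to 1.55. Col1a1 over Col1a2 was 2.32, 0.631 and 2.01 in PKO cSCC 1, 2 and 3 and 2.37, 2.18 and 1.69 in DKO cSCC 1, 2 and 3. In the 14 epidermis libraries it ran from 0.182 to 1.22, so 5 of 6 carcinomas were above every epidermis library and PKO cSCC 2 was not. Col3a1 over Col1a1 was 0.534, 0.789 and 0.521 in PKO carcinomas and 0.503, 0.677 and 1.08 in DKO carcinomas. In epidermis it was 1.18 to 3.13 in 13 libraries and 0.167 in DKO young 2, which rests on 1 and 6 counts. The lower share of type III collagen held in carcinomas whose Col1a1 level ranged from 12.5 to 370 CPM. These ratios were examined after the values were seen and are given with no test.

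Pdgfra was low beside collagen I in every carcinoma. Its counts were 18, 215 and 20 in PKO cSCC 1, 2 and 3 and 92, 62 and 13 in DKO cSCC 1, 2 and 3. Pdgfra over Col1a1 was 0.00758 to 0.0922 in carcinomas, against 0.102 to 0.464 in 13 epidermis libraries and 2.17 in DKO young 2. The other PDGF receptor, Pdgfrb, a gene of pericytes and fibroblasts, was 1.46, 5.97 and 0.634 CPM in PKO carcinomas and 10.6, 22.1 and 18.3 CPM in DKO carcinomas, against 8.23 to 23.7 CPM in young WT.

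**Figure D4:**
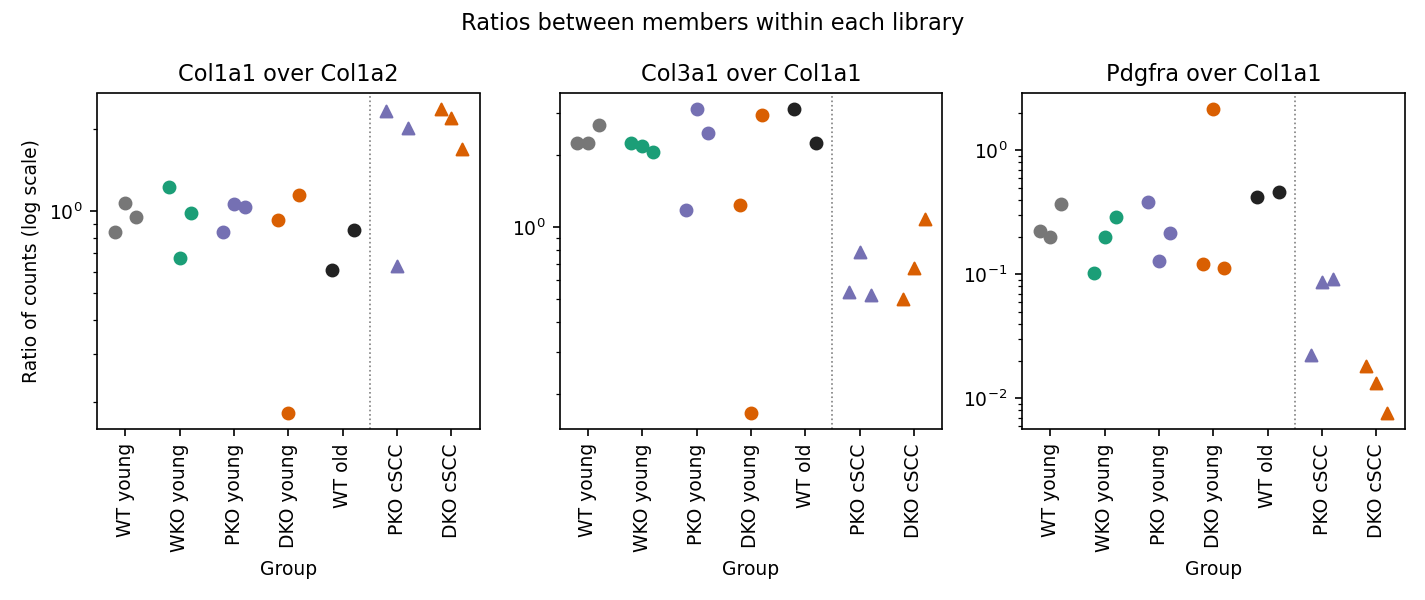
Ratio of counts within each library on a log scale, by group, with carcinomas (triangles) to the right of the dotted line. Col3a1 over Col1a1 lies between 0.503 and 1.08 in all carcinomas, and the lone low epidermis point, 0.167, is DKO young 2 with 1 Col3a1 count.

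Carcinomas were then compared with young epidermis of the same labelled genotype, in a fit of all 20 libraries. Col12a1 rose in both: it was 396, 262 and 106 CPM in PKO cSCC against 79.4, 48.3 and 40.7 in PKO young, and 172, 297 and 152 CPM in DKO cSCC against 34.2, 30.8 and 47.4 in DKO young. Neither pair of groups overlapped, as for 12.9% of all genes in PKO and 14.2% in DKO in this direction. The log2 fold change was 2.18 (SE 0.41, edgeR adjusted p = 0.00596) for PKO and 2.47 (SE 0.41, edgeR adjusted p = 0.00439) for DKO. The DKO call held without any 1 library and without both libraries that go against their labels. With only the compared groups in the fit, the PKO value was 2.13 with an edgeR adjusted p of 0.108, and without PKO young 2 and 3 and the libraries labelled DKO young 3 and DKO cSCC 3 it was 1.66 with 0.156. Markers of other cell types differed in the same comparisons. In DKO, all 10 endothelial genes had positive values (median 4.63, 1 called higher), as did 8 of 10 pericyte and smooth muscle genes (median 1.54, 1 called higher). Without the libraries labelled DKO young 3 and DKO cSCC 3, 2 endothelial genes and 1 pericyte and smooth muscle gene were called higher in DKO. In PKO, 10 of 12 T and NK cell genes and 4 of 6 erythrocyte genes tested were called lower. Without PKO young 2 and 3 as well, 6 T and NK cell genes and 0 erythrocyte genes were called lower in PKO, where 1.72% of all genes were called. The part of these cells in the Col12a1 and Postn values was not tested.

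Postn rose in PKO cSCC against PKO young by 2.02 (SE 0.61, edgeR adjusted p = 0.0437), from 191 to 227 CPM up to 406 to 1287 CPM. That call was lost without any PKO young library or PKO cSCC 2 or 3 (adjusted p from 0.0783 to 0.113) and with only the compared groups in the fit (0.0981). In DKO cSCC Postn was 76.2, 486 and 439 CPM against 207, 228 and 282 CPM (log2 fold change 0.48, SE 0.59, adjusted p = 0.664), with DKO cSCC 1 below all DKO young libraries. So 2 of 10 genes were called for PKO, against 11.5% of all genes, and 1 of 10 for DKO, against 7.3%. The 5 fibrillar collagens, Col6a1, Sparc and Pdgfra were called in neither, with log2 fold changes from -3.73 (Col3a1, SE 2.14, adjusted p = 0.268) to 2.63 (Sparc, SE 1.39, adjusted p = 0.226) for PKO. Without PKO cSCC 2 the Sparc value was -1.79, and Col6a1 was called lower at -4.72 (edgeR adjusted p = 0.0378), against -0.47 (0.856) with it. The median over the 10 genes was -0.39 for PKO and 0.30 for DKO, against -0.02 and 0.05 over all genes. The test of whether tissue effects differed between DKO and PKO called 0 of 10 genes and 0% of all genes in edgeR. At an unadjusted p under 0.05 it also called 0 of 10, against 12.6% of all genes. For Col12a1 that difference was 0.29 (SE 0.55, adjusted p = 0.895) and for Postn -1.54 (SE 0.84, adjusted p = 0.471).

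Against old WT epidermis, in a fit of 8 libraries, 0 of 10 genes passed for either carcinoma group in edgeR, against 0.0121% of all genes for PKO and 0% for DKO. Col12a1 had the smallest p of the 10 in both. Its difference was 3.60 on the log2 scale (SE 0.62, adjusted p = 0.0526) for PKO and 3.26 (SE 0.60, adjusted p = 0.165) for DKO. All 6 carcinomas, at 106 CPM or more, were above both old libraries, at 22.6 CPM or less. Of the 10 genes, 2 did not overlap with old WT for PKO (Col12a1, Postn) and 5 for DKO (Col1a1, Col5a1, Col5a2, Col12a1, Sparc), all higher, against 22.3% and 18% of all genes. For Postn it was 3.44 (SE 0.93, adjusted p = 0.0845) for PKO and 1.98 (SE 0.86, adjusted p = 0.348) for DKO. At an unadjusted p under 0.05, PKO had 2 of the 10, against 27.7% of all genes, and DKO 1, against 14.5%. The median over the 10 genes was 1.59 for PKO and 1.63 for DKO, against 0.06 and 0.02 over all genes. DESeq2 called Col12a1 in both (adjusted p = 1.64e-07 and 6.38e-06) and Postn in PKO (adjusted p = 0.000752), and so did edgeR with all 20 libraries in the fit. Carcinoma, genotype and age cannot be told apart from each other here. The tumours come from PKO and DKO mice, have no stated age and are compared with WT.

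DKO carcinomas were compared with PKO carcinomas to ask about loss of Wwox beside loss of p53. Col1a1 was 370, 362 and 153 CPM in DKO against 58.5, 144 and 12.5 CPM in PKO, a difference of 1.99 on the log2 scale (SE 1.09, edgeR adjusted p = 0.647). Col3a1 was 186, 245 and 165 CPM against 31.2, 113 and 6.51 CPM, a difference of 1.91 (SE 1.09, edgeR adjusted p = 0.657). These 2 genes did not overlap between the groups, which was so in this direction for 7.47% of all genes, and neither passed the test. Beside them, all 10 endothelial genes had positive values (median 4.39), as did 19 of 25 fibroblast identity genes (median 1.82), all 10 T and NK cell genes tested (median 1.98) and 9 of 10 macrophage and monocyte genes (median 1.37). None of these was called, and their part in the 2 differences was not tested. Endothelial genes summed to 48.6, 76.0 and 435 CPM in DKO cSCC 1, 2 and 3, against 12.8 to 32.4 CPM in PKO. T and NK cell genes summed to 35.1, 94.5 and 119 CPM, against 20.6 to 51.5 CPM. Macrophage and monocyte genes summed to 69.9, 98.0 and 359 CPM, against 18.4 to 115 CPM. The library labelled DKO cSCC 3 was the highest carcinoma in each of these sums, and the last 2 overlapped between the groups. Without the library labelled DKO cSCC 3 the differences were 2.31 for Col1a1 (adjusted p = 0.968) and 2.04 for Col3a1 (adjusted p = 0.968) in edgeR. Postn (-1.46, SE 0.73, adjusted p = 0.631) and Sparc (-2.23, SE 1.53, adjusted p = 0.715) overlapped, and Sparc turned to 2.24 without PKO cSCC 2. Col1a2, Col5a1, Col5a2, Col6a1, Col12a1 and Pdgfra overlapped as well, and the median over the 10 genes was -0.31, against -0.03 over all genes. None of the 10 genes was called, nor was any at an unadjusted p under 0.05, against 0.00605% and 8.1% of all genes, and DESeq2 called none of the 10. In data simulated for this comparison on 16040 genes, 2 of the 73 genes changed by a log2 of 2 were found (2.74%). Whether a change of that size could be found in the 10 genes was not tested.

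**Figure D5:**
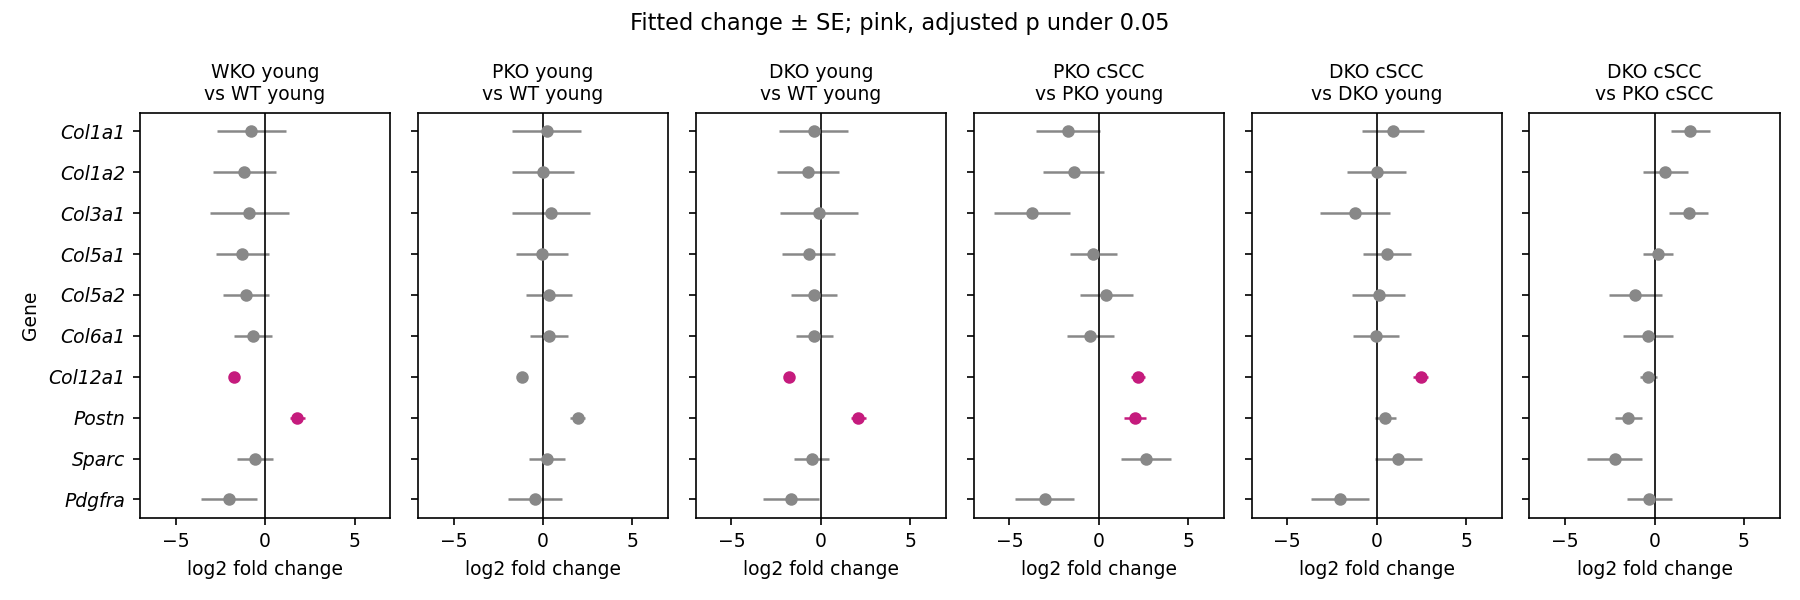
Fitted log2 fold change (points) with its SE (bars) for the 10 genes in 6 comparisons, with pink for an adjusted p under 0.05. Col12a1 and Postn have short bars and are the only genes in pink, while the bars of the fibrillar collagens are long, with an SE of 2.14 for Col3a1 in PKO cSCC against PKO young.

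Collagens of the basement membrane and the cell membrane form a list of 12 genes, some of them made by keratinocytes. In WKO and in DKO young epidermis 4 of 12 were called higher and 0 lower, namely Col4a5, Col4a6, Col7a1, which forms anchoring fibrils, and Col17a1 of the hemidesmosome, against 21.4% and 27.8% of all genes called in either direction. Without the library labelled DKO young 3, 4 were called higher and 3 lower in DKO, against 23.4% of all genes. Col7a1 rose by 2.74 on the log2 scale (SE 0.55, adjusted p = 0.0136) in WKO and 2.34 (SE 0.54, adjusted p = 0.0135) in DKO. In carcinomas against young epidermis 2 of 12 were called higher and 0 lower in each genotype, Col18a1 and Col7a1, against 11.5% of all genes for PKO and 7.3% for DKO. Col18a1, whose product is cut to endostatin, rose by 1.82 (SE 0.38, adjusted p = 0.00951) in PKO and 2.64 (SE 0.39, adjusted p = 0.00283) in DKO. Col17a1 is also in the basal keratinocyte list, which was higher in the same young groups. The medians over the list were 0.23 in WKO and 0.14 in DKO young, and 0.27 and 1.04 in PKO and DKO carcinomas, against -0.03, -0.04, -0.02 and 0.05 over all genes. Of 20 other fibrillar, fibril-associated, type VI and short-chain collagens tested, 4 were called higher and 0 lower in PKO cSCC against young epidermis (Col2a1, Col10a1, Col11a1 and Col11a2). In DKO cSCC 0 were called in either direction, against the same 11.5% and 7.3%. Of the 4, Col2a1 and Col11a1 were high in PKO cSCC 2 alone, and these calls are not given without that library. The summed level of this list was 8951 CPM in PKO cSCC 2 and 187 to 461 CPM in the other 5 carcinomas.

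Enzymes and chaperones that fold, trim and crosslink collagen form a list of 30 genes. Of these, 7 were called higher and 1 lower in PKO cSCC against PKO young, and 3 higher and 0 lower in DKO cSCC against DKO young, beside 11.5% and 7.3% of all genes called. The medians over the list were 1.39 and 0.72, against -0.02 and 0.05 over all genes. Bmp1, the protease that removes the procollagen C-terminal propeptide, rose by 2.18 (SE 0.33, adjusted p = 0.0027) in PKO and 2.12 (SE 0.33, adjusted p = 0.00354) in DKO. Its relative Tll1 rose by 2.38 (SE 0.57, adjusted p = 0.0172) and 2.85 (SE 0.58, adjusted p = 0.0105). The prolyl hydroxylase subunit P4ha1 rose by 1.23 (SE 0.24, adjusted p = 0.00657) in PKO. Without the libraries labelled DKO young 3 and DKO cSCC 3 the DKO count was again 3 and 0, and without PKO young 2 and 3 as well the PKO count was 1 higher and 1 lower, where 1.72% of all genes were called. The crosslinking enzyme Lox was 0.511, 134 and 0 CPM in PKO carcinomas and 1.48, 1.16 and 1.52 CPM in DKO carcinomas, so among the carcinomas it was high in PKO cSCC 2 alone (a gene chosen after its values were seen).

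Among 37 proteoglycan, elastic fibre and matricellular genes, 1 was called higher and 3 lower in PKO cSCC, and 1 higher and 1 lower in DKO cSCC, each against its young epidermis, beside the same 11.5% and 7.3% of all genes. Tnxb, a tenascin of dermal matrix, fell by 5.58 (SE 0.89, adjusted p = 0.00325) in PKO and 2.997 (SE 0.79, adjusted p = 0.0316) in DKO, where the call was lost without the libraries labelled DKO young 3 and DKO cSCC 3 (-2.96, edgeR adjusted p = 0.077). Tenascin C (Tnc), a matrix protein of wounds and tumours, rose by 3.18 (SE 0.80, adjusted p = 0.0206) in PKO, and had 2.32 (SE 0.77, adjusted p = 0.0764) in DKO. Of 25 fibroblast identity genes 0 were called higher and 4 lower in PKO cSCC (median -2.93), Lsp1, Dpp4, Thy1 and Pi16, of which Lsp1 and Thy1 are also leukocyte genes. T and NK cell genes fell beside them, with 10 of 12 called lower. In DKO cSCC 1 of 25 was called higher, Fbln1, and 0 lower, with or without the libraries that go against their labels. The median over the list was 0.26 with them and 3.45 without the libraries labelled DKO young 3 and DKO cSCC 3. Without PKO young 2 and 3 as well, 0 of 25 were called in PKO cSCC (median 0.16), and 6 of 12 T and NK cell genes were called lower there.

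Of 14 PDGF ligands, PDGF receptors and collagen receptors, 3 were called higher and 1 lower in WKO young, 2 and 2 in DKO young, 3 and 1 in PKO cSCC and 2 and 0 in DKO cSCC. The shares of all genes called were 21.4%, 27.8%, 11.5% and 7.3% in that order. Without the libraries labelled DKO young 3 and DKO cSCC 3, DKO young had 2 higher and 4 lower and DKO cSCC 3 and 0. Pdgfa, a ligand of Pdgfra made by keratinocytes, was 5.39 to 8.003 CPM in young WT and rose by 1.75 (SE 0.36, adjusted p = 0.0142) in WKO and 1.36 (SE 0.36, adjusted p = 0.0206) in DKO young epidermis. It rose again in PKO cSCC against PKO young, by 1.90 (SE 0.40, adjusted p = 0.0103), where it was 124, 54.0 and 67.7 CPM, and that call was lost without PKO young 2 and 3 and both libraries labelled DKO young 3 and DKO cSCC 3 (1.22, edgeR adjusted p = 0.229). Ddr1, a collagen receptor of epithelia, rose by 2.06 (SE 0.40, adjusted p = 0.0128) in WKO and 1.91 (SE 0.39, adjusted p = 0.00958) in DKO young epidermis. Its mesenchymal relative Ddr2 fell by 3.03 (SE 0.79, adjusted p = 0.0245) in PKO cSCC, and was at 0.15 (edgeR adjusted p = 0.95) without those 4 libraries. Without them, no gene of this list, of the basement membrane list or of the other collagens was called in PKO cSCC against PKO young, where 1.72% of all genes were called. The proteoglycan list then had 0 higher and 1 lower in PKO cSCC, and 3 higher and 0 lower in DKO cSCC, where 7.5% of all genes were called.

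The genes most like the 10 were sought among 12104 genes by the correlation, over all 20 libraries, of log2(CPM + 1) with the mean standardised level of the 10. The closest was Col6a2, the partner chain of Col6a1 (Pearson r = 0.946), then Ccdc80 (0.937), Aebp1 (0.932), Col15a1 (0.924), Fbn1 (0.923), Nid1 (0.917), Adamts2 (0.912), Pdgfrb (0.911), Col5a3 (0.906) and Pcolce (0.905). Fbn1 encodes fibrillin of elastic fibres, and Adamts2 and Pcolce take part in procollagen trimming. Of the 10 themselves, Col5a1 (0.965) and Col1a2 (0.964) lay nearest their own mean, Col12a1 was at 0.46 and Postn at 0.0944. Each of the 10 is part of that mean, which raises its correlation, so the outside genes cannot be ranked against them. These values describe the 20 libraries, which share groups and cell make-up, and carry no p.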

How the data were processed

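The authors deposited 1 table of estimated counts, whole numbers for 51123 Ensembl gene identifiers in 20 libraries, of which 48246 were matched to a symbol. Per the labels, 5 ng of RNA entered a low-input library kit that keeps strand. Named in the submitters' processing notes, in no stated role, are Salmon 0.13.1, DESeq2 1.28.1, Trim Galore 0.4.1 and FastQC 0.11.5, and the build mm39. Any use of molecular identifiers by the authors is not stated in the labels. Counts were scaled by TMM and tested with edgeR 4.0.16 in R 4.3.3 (quasi-likelihood test, default low-count filter, no covariate), with Benjamini-Hochberg adjustment over all genes tested and a threshold of 0.05. The young comparisons share 1 fit of 12 libraries, carcinomas with old WT 1 of 8, old with young WT 1 of 14, and carcinomas with young epidermis 1 of 20. CPM uses the TMM scaling of all 20 libraries, and the script was tested on simulated data.

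Alternatives were another scaling (RLE), no filter, DESeq2 1.42.0, the replicate number as a block, other libraries in the fit and each library left out. The members and gene lists were chosen with earlier results of these data known. All 10 members are named, with Wwox and Trp53 as a check of the labels. From other lists up to 4 genes of the smallest p are named per comparison, and genes outside that rule are marked as chosen after their values were seen. The genes most like the members needed at least 5 CPM in 2 libraries. Exonic lengths and promoters are from GRCm38 annotation and serve for lengths and letters only. All 10 members passed the low-count filter in every comparison.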

Additional observations from a re-analysis of the deposited data

How the results depend on the processing

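Of 100 results for the 10 genes (10 comparisons), 8 were called and none of those 8 changed sign under the alternatives run, whereas 103 of 1250 values over all alternatives did. In no comparison with 3 pairs was the correlation of deviations over 0.1 in every same-numbered pair (for WKO and WT young it was 0.259, 0.157 and 0.0681), so the numbers are not taken as pairs. With the replicate number as a block, the genes called were 2 for DKO against PKO cSCC (1 without it), 0 for PKO cSCC against old WT (2), 2355 for WKO young (3563) and 0, with 0 members, for old against young WT (351 and 1), and Sparc in DKO against PKO cSCC turned to 0.22. RLE scaling moved levels by -0.05 to 0.07 on the log2 scale and gave 3 genes for PKO young (1). With no filter the genes called were 375 for DKO against PKO cSCC, 2285 (3 members) and 853 (2 members) for PKO and DKO cSCC against old WT (2 and 0), 990 (2 members) for PKO young, 1068 for old against young WT and 93 for the difference of tissue effects (0). DESeq2 gave 196, 3009 (2 members), 816 (1 member), 2327 (2 members), 2145 and 467 in that order, and 3426 and 2692 for PKO and DKO cSCC against young epidermis (2087 and 1326). All 20 libraries in the fit gave 2, 3876 (2 members), 788 (1 member), 2199 (1 member) for WKO young, 3 for PKO young and 154 for old against young WT. Only the compared groups gave 7 genes and 0 members for PKO cSCC against young.

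Settings that leave out the libraries that go against their labels were chosen after seeing the data. Without the libraries labelled DKO young 3 and DKO cSCC 3, 7 members were called for DKO young, among 4045 of 17305 genes. Without PKO young 2 and 3 as well, 8 members were called there, among 5427 of 18457 genes, 1291 genes for PKO young (Col1a1 -3.88), 336 genes and 0 members for PKO cSCC against young (Col3a1 1.60), and 2 for the difference of tissue effects. With each library left out in turn, genes called ranged from 0 to 1 for DKO against PKO cSCC, 0 to 67 and 0 to 2 for PKO and DKO cSCC against old WT, 893 to 3513 for WKO, 1 to 2998 for PKO and 1609 to 4045 for DKO young, 0 to 434 for old against young WT, 1144 to 2041 and 265 to 1800 for PKO and DKO cSCC against young, and 0 to 11 for the difference of tissue effects. Members called ranged from 1 to 2 for WKO, 0 to 1 for PKO and 2 to 7 for DKO young, 0 to 1 for old against young WT and 1 to 2 for PKO cSCC against young. Values whose sign changed this way ranged from -2.79 to 2.24 for Sparc in DKO against PKO cSCC and from -1.79 to 3.19 in PKO cSCC against young, where leaving out PKO cSCC 2 gave the 2.24 and the -1.79, from -0.32 to 0.80 for Col1a1 in PKO young and from -5.86 to 0.18 in DKO young, from -0.13 to 1.48 for Postn in old against young WT, and from -0.082 to 0.75 for Col12a1 in the difference of tissue effects. The cause of these changes was not tested, beyond the fewer libraries in each fit. In simulated data a change of 3 on the log2 scale was found for 3.64% of genes in PKO cSCC against old WT.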
